A study of Mus musculus with 8 samples.

Results

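Expression of 45 cell cycle and proliferation genes was compared between secretory and maturation stages of wt mouse enamel organs. The genes were chosen by symbol, as genes of S phase and mitosis, and all 45 were found among the 54532 genes of the deposited count table. First molars of C57BL/6 wt pups were collected at postnatal day 5 (P5) and day 12 (P12), and no treatment was given. Soft tissue was removed from the pulp chambers, enamel organs of 5 pups were pooled for each library, and 4 libraries of polyadenylated RNA were sequenced at each age. The P5 libraries carry the replicate numbers 1, 3, 4 and 5 and the P12 libraries 1, 2, 3 and 4, and values per library are given below in this order.

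The cell cycle copies the genome in S phase and divides it in mitosis. Before S phase, Cdc6 and Cdt1 load the Mcm2 to Mcm7 helicase on replication origins, and E2F factors and cyclin E with Cdk2 start the expression and firing of the replication machinery. In G2 and mitosis, cyclin A, cyclin B and Cdk1 drive entry, a checkpoint holds the chromosomes until each kinetochore is attached, and the anaphase promoting complex (APC/C) then releases them. In developing teeth, cells of the inner enamel epithelium divide and leave the cycle as they become ameloblasts, so that secretory and maturation stage ameloblasts are postmitotic, while other epithelial cells, mesenchyme, endothelium and blood cells around them can still divide. RNA of whole enamel organs was measured here, and more dividing cells cannot be told apart from more RNA of these genes in each dividing cell.

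Libraries held from 16574548 to 22013456 counted reads. The 20 most abundant genes of a library took 34.1% to 35.7% of its counts at P5 and 16.8% to 19.0% at P12, and the counts were therefore scaled by edgeR's TMM method. A normalized count is a count divided by the effective library size and multiplied by the mean of these sizes. The 45 genes made up 0.0401% to 0.0454% of a library's reads at P5 and 0.0746% to 0.120% at P12, with single counts from 13 (Cdc25c) to 2551 (Mki67). All 45 passed edgeR's filter on low counts and were tested in a fit over 16440 genes. The counts of 2 libraries were compared in a chi-square test over all genes with at least 20 counts in the pair. The statistic per degree of freedom was between 5.11 and 6.35 among P5 replicates 1, 3 and 4. It was between 18.8 and 20.4 where P5 replicate 5 was 1 of the pair. Among P12 replicates 1 to 3 it was between 9.35 and 20.9, and between 35.1 and 83.4 in pairs with replicate 4, and the counts of calls are therefore given with and without these libraries.

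Of the 45 cell cycle genes, 39 were higher and 1 was lower at P12 than at P5 at an edgeR adjusted p under 0.05, and 5 did not pass the test. Of all 16440 genes tested, 28.8% were higher and 28.4% lower by the same test, 57.2% in either direction. The median log2 fold change of the 45 genes was 1.04, a 2.06-fold rise, against a median of 0.01 over all genes. In 32 of the 45 genes every P12 library was above every P5 library, and in 1 gene every P12 library was below, where 26.0% and 26.6% of all genes showed these patterns. A log2 fold change of at least 1 with an adjusted p under 0.05 was found in 24 of the 45 genes and in 11.3% of all genes. The direction of the 39 rises was the same in each of the 4 scalings tried, and the log2 fold change of Cdk2 became 0.11 under total count scaling and did not pass the test (edgeR adjusted p = 0.11). That scaling shifted the median over all genes to 0.38 log2 units and that of the cell cycle genes to 1.41. A change of scaling moves all genes by nearly the same amount, so the difference between these medians, 1.03 under both, could hardly change. Scaling by DESeq2 size factors and scaling without the most abundant genes left the median over all genes at 0.01 and 0.03. These scalings could therefore hardly have reversed the rises, and their shared direction is no test of them. Total count scaling also called 8885 genes higher and 2330 lower, against 4735 and 4676 in the TMM fit. Of the 45 cell cycle genes it called 44 higher and 0 lower, among them the 5 that did not pass in the TMM fit.

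**Figure D1:**
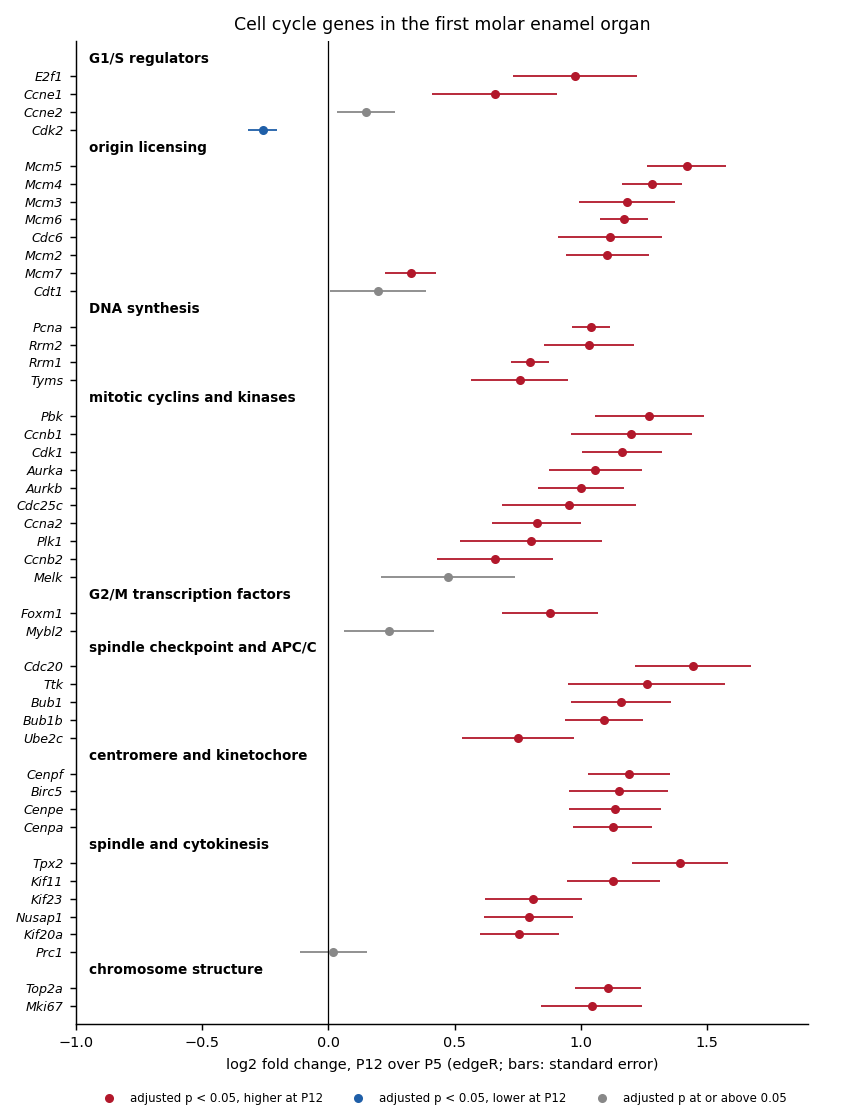
Log2 fold change of each of the 45 cell cycle genes at P12 over P5 (horizontal axis), with bars for the edgeR standard error, grouped by role. Red points passed an adjusted p of 0.05 as higher at P12 (39 genes), the blue point, Cdk2, as lower (0.11 under total count scaling, edgeR adjusted p = 0.11, no call), and 5 grey points did not pass.

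Without P12 replicate 4, 41 genes were higher, among them all 39 of the full comparison together with Melk and Mybl2, and the median log2 fold change was 1.17. Without both P12 replicate 4 and P5 replicate 5, 40 genes were higher, again with all 39, and the median was 1.08. Of the 39 rises, 33 passed the test in each of 18 alternative fits, and the other 6 were Ccne1, Mcm7, Ccnb2, Cdc25c, Plk1 and Ube2c.

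Promoters of cell cycle genes often carry short elements that time their transcription. E2F sites are known from genes of the G1/S transition, and the cell cycle genes homology region (CHR), bound by the MuvB core of the DREAM and Myb-MuvB complexes, acts together with CCAAT boxes bound by NF-Y in genes of G2 and mitosis. RefSeq promoter sequences (GRCm38.p6, 250 bases before and 50 after the start) were matched to 36 of the 45 genes, and Mcm4, Ccna2, Ccne2, Cdc25c, Aurkb, Pbk, Foxm1, Kif20a and Tpx2 were not matched. On either strand, CHR was searched as TTTGAA or TTCGAA, the CCAAT box as CCAAT, and E2F as TTTCCCGC, TTTCGCGC, TTTGCCGC or TTTGGCGC, and overlapping matches were counted separately. The promoters of 18 of the 36 genes (50%) held a CHR match, against 18.4% of 20449 genes with 1 promoter each. A CCAAT box was found in 27 (75.0%), against 38.2%, and an E2F match in 8 (22.2%), against 2.64%. In the 250 bases before the start alone, the shares were 27.8% for CHR, 75.0% for CCAAT and 16.7% for E2F, against 16.6%, 35.2% and 2.18% of all genes.

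E2F matches were found mainly in the licensing genes, in 6 of the 7 with a promoter (Cdc6, Cdt1, Mcm3, Mcm5, Mcm6 and Mcm7), and also in Cdk1 and Cdk2. All 5 genes of the spindle checkpoint and APC/C group and both genes of chromosome structure held CHR and CCAAT matches together. Before the start alone this held for 3 of the 5 and for both genes of chromosome structure. Birc5, Ccne1, E2f1, Melk, Mybl2, Nusap1 and Tyms held none of the 3 motifs. The start used by RefSeq lay 466 bases from the 5′ end of the deposited gene in E2f1, 539 in Mcm7 and 350 in Cdc6, downstream of it in all 3, so that the windows of E2f1, Mcm7 and Cdc6 are not the region just before the deposited gene. The 160 bases before the start were all exonic in E2f1 and Mcm7, and also in Nusap1 and Prc1. The median log2 fold change was 1.10 in the 18 genes with CHR and 1.10 in the 27 with CCAAT. It was 1.14 in the 8 with E2F and 0.76 in the 7 with none. In the same order 17 of 18, 25 of 27, 6 of 8 and 5 of 7 were higher at P12. Of all 36 genes with a promoter 31 were higher, with a median of 1.05. The motif groups share genes, and differences between the groups were not tested. A match is a string of letters in this window and was not tested for binding. The 160 bases before the start are printed for 2 licensing genes with E2F matches and for 5 genes of mitosis with CHR and CCAAT matches, 5′ to 3′ on the gene's strand, with the matches to the 3 motifs that lie in this stretch in capitals:
Mcm5, chr8:75109349-75109508 (forward strand): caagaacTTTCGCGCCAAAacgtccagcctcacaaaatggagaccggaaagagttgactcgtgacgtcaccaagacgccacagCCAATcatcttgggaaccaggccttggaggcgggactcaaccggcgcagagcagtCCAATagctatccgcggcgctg
Mcm6, chr1:128359706-128359865 (reverse strand): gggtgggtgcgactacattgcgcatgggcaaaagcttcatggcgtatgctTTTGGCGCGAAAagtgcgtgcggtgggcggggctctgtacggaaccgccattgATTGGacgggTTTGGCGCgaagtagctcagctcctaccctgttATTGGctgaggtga
Cdk1, chr10:69352913-69353072 (reverse strand): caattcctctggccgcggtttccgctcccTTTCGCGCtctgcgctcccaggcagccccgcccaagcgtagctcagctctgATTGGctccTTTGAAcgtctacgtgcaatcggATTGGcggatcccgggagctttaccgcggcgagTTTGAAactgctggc
Cdc20, chr4:118437344-118437503 (reverse strand): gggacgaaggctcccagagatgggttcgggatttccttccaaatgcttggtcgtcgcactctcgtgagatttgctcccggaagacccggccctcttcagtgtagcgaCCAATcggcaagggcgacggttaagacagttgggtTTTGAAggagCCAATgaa
Kif11, chr19:37376222-37376381 (forward strand): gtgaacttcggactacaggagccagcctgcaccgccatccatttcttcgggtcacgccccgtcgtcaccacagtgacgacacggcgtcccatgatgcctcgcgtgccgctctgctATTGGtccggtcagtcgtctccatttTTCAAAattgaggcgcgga
Mki67, chr7:135716380-135716539 (reverse strand): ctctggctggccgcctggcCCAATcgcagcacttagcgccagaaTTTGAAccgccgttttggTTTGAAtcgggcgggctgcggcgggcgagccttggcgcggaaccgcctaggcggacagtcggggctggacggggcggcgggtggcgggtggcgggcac
Top2a, chr11:99024190-99024349 (reverse strand): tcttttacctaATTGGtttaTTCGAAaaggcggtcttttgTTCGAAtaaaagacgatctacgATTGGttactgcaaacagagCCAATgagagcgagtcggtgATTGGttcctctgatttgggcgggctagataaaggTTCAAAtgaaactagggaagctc

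In the Mcm5 and Mcm6 sequences, E2F matches on opposite strands overlap in 1 run of capitals, and Mcm6 holds a further E2F match nearer to the start. Cdk1 and Mcm7 were the 2 genes of the 36 with matches to all 3 motifs. The Mki67 stretch shows 1 CCAAT box before 2 CHR matches, and in Top2a both motifs are repeated.

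Both general proliferation markers rose. Mki67 (ENSMUSG00000031004, chromosome 7 of GRCm38, 135689784 to 135716361, reverse strand) encodes Ki-67, the coat protein of mitotic chromosomes that is used to stain cycling cells. Its normalized counts were 886, 761, 816 and 553 in the P5 libraries and 1870.3, 1906, 1432 and 988 in those of P12. The lowest P12 library, replicate 4, lay above the highest P5 library, and the groups did not overlap (log2 fold change 1.04, standard error 0.20, edgeR adjusted p = 0.00095). The means were 754 ± 144 for P5 and 1549 ± 432 for P12 (SD, n = 4 each). Top2a (ENSMUSG00000020914, chromosome 11 of GRCm38, 98992943 to 99024189, reverse strand), topoisomerase II alpha, untangles replicated DNA and had normalized counts of 510.4, 502, 505 and 475 in the P5 libraries and 1221, 1295, 945 and 821 in those of P12. The P5 libraries were within a narrow range and all P12 libraries were above it (log2 fold change 1.11, standard error 0.13, edgeR adjusted p = 2.7e-05). Its means were 498 ± 15.6 for P5 and 1071 ± 224 for P12 (SD, n = 4 each). For both genes P12 replicates 1 and 2 were the high libraries and replicate 4 was the low one. The promoters of both are among the sequences printed above.

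Of the 8 genes of origin licensing 7 were higher at P12 and none was lower, with a median log2 fold change of 1.14. The Mcm2 to Mcm7 proteins form 1 hexamer, the replicative helicase. Mcm5 (ENSMUSG00000005410, chromosome 8 of GRCm38, 75109569 to 75128439, forward strand) rose from normalized counts of 192, 172, 237 and 209.6 in the P5 libraries and then 649, 625, 469.8 and 417 in those of P12 (log2 fold change 1.42, standard error 0.16, edgeR adjusted p = 1.5e-05). The lowest P12 library was far above the highest P5 library. Mcm4 had normalized counts of 225, 220.2, 229 and 200.05 in the P5 libraries and 605, 585, 516 and 418 in those of P12. For Mcm6, the licensing gene with the highest mean count apart from Mcm7, the values were 391, 344, 384 and 333 in the P5 libraries and 891, 900.3, 752 and 719.9 in those of P12 (log2 fold change 1.17, standard error 0.10, edgeR adjusted p = 1.4e-06). Neither gene overlapped between ages, and their P12 libraries were ordered as those of Mki67 or nearly so. Mcm2 was at 249, 214, 231 and 215 in the P5 libraries and 622, 554, 419.8 and 350.4 in those of P12, and Mcm3 was at 175, 159, 192 and 171 in the P5 libraries and 487, 500.4, 321 and 269 in those of P12. In both, P12 replicate 4 was the lowest P12 library and still above all P5 libraries, with log2 fold changes of 1.10 and 1.18.

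Mcm7 differed from its partners in the hexamer. Its normalized counts were 719, 618, 754 and 612 in the P5 libraries and 935, 931, 769 and 747 in those of P12, the P12 range began within the P5 range, and the log2 fold change was 0.33 (standard error 0.10, edgeR adjusted p = 0.016). Its P5 level was the highest of the 6 helicase genes. Exonic overlap of 12.6% was found with Ap4m1, Cops6, Mir25 and Mir93, the first 2 on the opposite strand, and the counting's use of strand is not given in the sources used here. Cdc6, the ATPase that recruits the helicase, was low, at 51.4, 52.5, 47.5 and 32.8 in the P5 libraries and 122, 89.4, 102 and 83.3 in those of P12. The 4 P12 values exceeded each P5 value (log2 fold change 1.11, standard error 0.21, edgeR adjusted p = 0.00074). Cdt1, its partner in loading, was at 189, 171, 171 and 143 in the P5 libraries and 254, 209, 178 and 127 in those of P12. The groups overlapped, with P12 replicate 4 below all P5 libraries and P12 replicates 1 and 2 above them (log2 fold change 0.20, standard error 0.19, edgeR adjusted p = 0.41).

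All 4 genes of DNA synthesis were higher at P12 and none overlapped between ages. Pcna (ENSMUSG00000027342, chromosome 2 of GRCm38, 132249162 to 132253314, reverse strand), the sliding clamp of the replication fork, had normalized counts of 789, 742, 689 and 668 in the P5 libraries and 1545, 1598, 1378 and 1415 in those of P12. Its libraries lay close together within each age (log2 fold change 1.04, standard error 0.08, edgeR adjusted p = 5.8e-07), and its means were 722 ± 54.6 for P5 and 1484 ± 105 for P12 (SD, n = 4 each). Rrm1 and Rrm2 encode the large and small subunits of ribonucleotide reductase, which makes deoxyribonucleotides. Rrm1 was at 663, 663, 745 and 639 in the P5 libraries and 1165, 1302, 1088 and 1154 in those of P12, and Rrm2 at 297, 286, 244 and 189 in the P5 libraries and 596, 593, 524 and 356 in those of P12. Both rose, with log2 fold changes of 0.80 and 1.03, and Rrm2 spread more widely, with P5 replicate 5 and P12 replicate 4 as the lowest libraries of their ages. Tyms, thymidylate synthase, was at 141, 141, 138 and 115 in the P5 libraries and 235, 311, 201 and 156 in those of P12. Its lowest P12 library was just above its highest P5 library (log2 fold change 0.76, standard error 0.19, edgeR adjusted p = 0.0056).

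The G1/S regulators did not move together, and of the 4 genes 2 were higher, 1 was lower and 1 did not pass the test. E2f1, the activating factor of S phase genes, was at 87.4, 61.5, 68.5 and 70.9 in the P5 libraries and 178, 165, 144 and 77.3 in those of P12. P12 replicates 1 to 3 were above all P5 libraries and replicate 4 lay among them (log2 fold change 0.98, standard error 0.24, edgeR adjusted p = 0.0052). Ccne1, cyclin E1, was at 51.4, 40.2, 56.7 and 49.7 in the P5 libraries and 87.2, 97.9, 81.5 and 44.2 in those of P12. It showed the same overlap through P12 replicate 4 (log2 fold change 0.66, standard error 0.25, edgeR adjusted p = 0.041), and this p rose up to 0.24 among the alternative fits. Ccne2, cyclin E2, was at 157, 154, 158 and 142 in the P5 libraries and 173, 186, 169 and 149 in those of P12 (log2 fold change 0.15, standard error 0.11, edgeR adjusted p = 0.29). Its groups overlapped, and 17.4% of its exonic sequence overlaps exons of Ints8 on the opposite strand.

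Cdk2 (ENSMUSG00000025358, chromosome 10 of GRCm38, 128697939 to 128705031, reverse strand), the kinase partner of cyclins E and A, was the single gene called lower at P12. Its normalized counts were 856, 859, 852 and 852 in the P5 libraries and 697, 740.0, 683 and 735 in those of P12. The P5 libraries were almost equal and all P12 libraries were below them, by a small step (log2 fold change -0.26, standard error 0.06, edgeR adjusted p = 0.0025). The means were 855 ± 3.38 for P5 and 714 ± 28.2 for P12 (SD, n = 4 each). In counts scaled by library total the sign of this difference was reversed, as given above. The Cdk2 promoter held 1 E2F match, 1 CCAAT match and no CHR match.

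**Figure D2:**
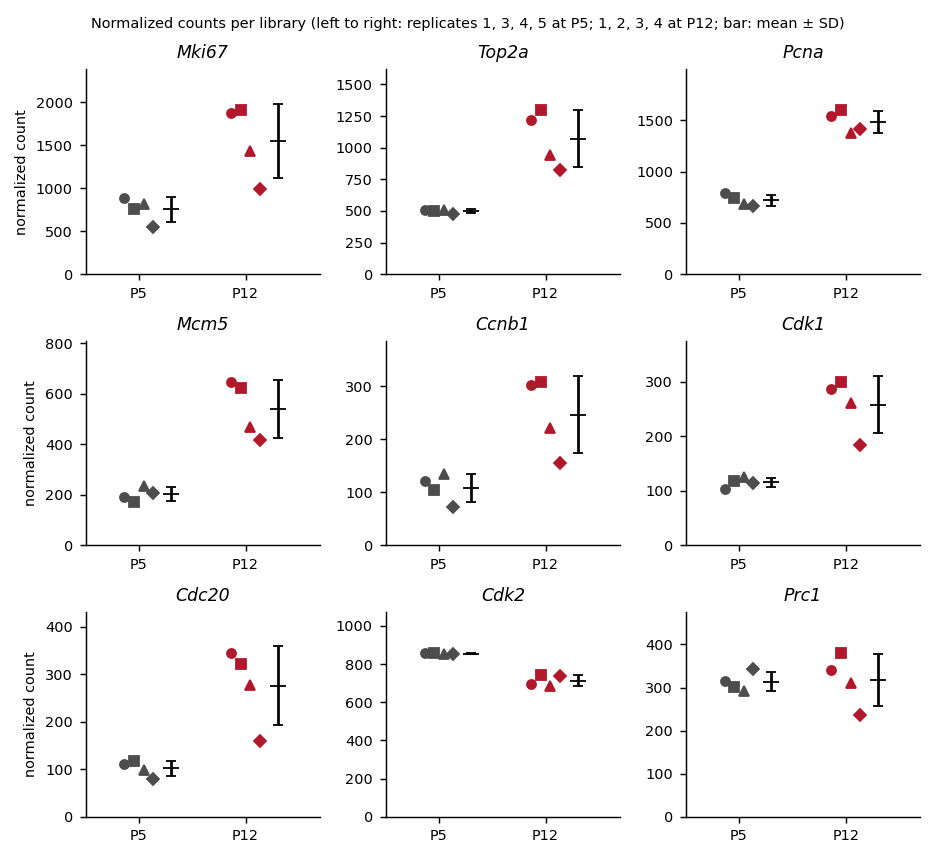
Normalized counts (vertical axes, starting at 0) of 9 cell cycle genes in each library, by age, with the mean and SD of 4 libraries beside the points. The P12 points lie above the P5 points for Mki67, Top2a, Pcna, Mcm5, Ccnb1, Cdk1 and Cdc20, below them for Cdk2 in this scaling (under total count scaling its log2 fold change was 0.11, edgeR adjusted p = 0.11, no call), and on both sides for Prc1.

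Among the mitotic cyclins and kinases 9 of 10 genes were higher at P12, none was lower, and the median log2 fold change was 0.98. Cdk1, the kinase that drives entry into mitosis, was at 104, 119, 125 and 114 in the P5 libraries and 287, 300.4, 261 and 184 in those of P12. The groups did not overlap (log2 fold change 1.16, standard error 0.16, edgeR adjusted p = 8.1e-05). Its partner Ccnb1, cyclin B1, was at 122, 104, 134 and 73 in the P5 libraries and 302, 309, 221 and 156 in those of P12. P5 replicate 5 and P12 replicate 4 were the low libraries, and the lowest P12 value was above the highest P5 value (log2 fold change 1.20, standard error 0.24, edgeR adjusted p = 0.0013). Ccnb2, cyclin B2, was at 119.6, 143, 125 and 86.8 in the P5 libraries and 235, 237, 152 and 122 in those of P12. Here P12 replicate 4 fell into the P5 range (log2 fold change 0.66, standard error 0.23, edgeR adjusted p = 0.029), and this p rose up to 0.23 among the alternative fits. Ccna2, cyclin A2, was at 215, 196, 202 and 169 in the P5 libraries and 422, 405, 322 and 228 in those of P12. No P12 library reached down to the P5 range (log2 fold change 0.82, standard error 0.18, edgeR adjusted p = 0.002), and 12.5% of its exonic sequence overlaps exons of Exosc9 on the opposite strand.

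Aurka and Aurkb encode the Aurora kinases of the spindle poles and of the chromosomal passenger complex. Aurka was at 60.4, 49.2, 71.2 and 56.1 in the P5 libraries and 142, 140.1, 101 and 107 in those of P12, and Aurkb at 78.4, 71.5, 73.8 and 61.4 in the P5 libraries and 167, 159, 112 and 129.5 in those of P12. Neither overlapped between ages, with log2 fold changes of 1.06 and 0.9996, and in both P12 replicate 3, not 4, was the lowest P12 library. Plk1, polo-like kinase 1, was at 92.6, 88.3, 96.2 and 78.3 in the P5 libraries and 205, 188, 154 and 68.3 in those of P12. P12 replicate 4 was below all P5 libraries and the other P12 libraries were above them (log2 fold change 0.80, standard error 0.28, edgeR adjusted p = 0.029). Without replicate 4 the log2 fold change of Plk1 was 1.04 (edgeR adjusted p = 7.7e-05), and the highest p among the alternatives was 0.19. Exonic overlap of 7.1% was found with Gm44985 on the opposite strand.

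Cdc25c, a phosphatase that activates Cdk1, had the lowest counts of the 45 genes, at 33.4, 25.7, 17.1 and 18 in the P5 libraries and 46.2, 52.3, 47.3 and 36.1 in those of P12 after normalization (log2 fold change 0.95, standard error 0.27, edgeR adjusted p = 0.0094). The ranges of the ages were separate, and 12.7% of its exonic sequence overlaps exons of Gm3550 on the opposite strand. Pbk, a mitotic kinase, was at 63, 54.8, 38.2 and 51.9 in the P5 libraries and 138, 159, 114 and 91.4 in those of P12. The groups did not overlap (log2 fold change 1.27, standard error 0.22, edgeR adjusted p = 0.00041). Melk, a kinase of proliferating cells, was at 65.6, 44.7, 71.2 and 81.5 in the P5 libraries and 114, 119, 67.6 and 62.2 in those of P12. P12 replicates 1 and 2 were above the P5 range and replicates 3 and 4 within it, and the gene did not pass the test (log2 fold change 0.47, standard error 0.27, edgeR adjusted p = 0.15). It passed without P12 replicate 4, with a log2 fold change of 0.61 (edgeR adjusted p = 0.048).

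The 2 transcription factors of G2 and mitosis differed in their calls. Foxm1, which activates mitotic genes, was at 136, 92.8, 113 and 153 in the P5 libraries and 271, 242, 235 and 161 in those of P12. The lowest P12 library was just above the highest P5 library (log2 fold change 0.88, standard error 0.19, edgeR adjusted p = 0.0022). Mybl2, or B-Myb, a subunit of the Myb-MuvB complex, was at 159, 174, 157 and 132 in the P5 libraries and 205, 234, 165 and 129.5 in those of P12. P12 replicate 4 was below all P5 libraries, and the difference did not pass the test (log2 fold change 0.24, standard error 0.18, edgeR adjusted p = 0.27). A test of the difference between the 2 genes was not made.

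All 5 genes of the spindle checkpoint and APC/C group were higher at P12, with a median log2 fold change of 1.16, and their P12 libraries spread the most of all role groups, with a median ratio of 2.18 between the highest and the lowest P12 library. Cdc20 (ENSMUSG00000006398, chromosome 4 of GRCm38, 118432901 to 118437352, reverse strand), the activator of the APC/C in mitosis, was at 111, 119, 97.5 and 80.4 in the P5 libraries and 345, 322, 277 and 159 in those of P12. It rose (log2 fold change 1.44, standard error 0.23, edgeR adjusted p = 0.00024), and no P12 library was within the P5 range. Ube2c, the ubiquitin-conjugating enzyme of the APC/C, was at 174, 152, 129 and 138 in the P5 libraries and 295, 324, 229 and 144 in those of P12. P12 replicate 4 lay within the P5 range (log2 fold change 0.75, standard error 0.22, edgeR adjusted p = 0.013), and 22.8% of its exonic sequence overlaps exons of Tnnc2, a muscle troponin gene, on the opposite strand.

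The checkpoint kinases Bub1 and Ttk and the checkpoint protein Bub1b signal unattached kinetochores. Bub1b was at 144, 119, 105 and 115 in the P5 libraries and 290.3, 277, 268 and 193 in those of P12 (log2 fold change 1.09, standard error 0.15, edgeR adjusted p = 0.0001). Bub1 was at 42.4, 42.5, 62 and 42.3 in the P5 libraries and 113, 121, 106 and 81.3 in those of P12, with a log2 fold change of 1.16. For both the ages were fully separate. Ttk had the lowest level per kilobase of the 45 genes and was at 18, 29.1, 27.7 and 41.3 in the P5 libraries and 89.4, 75.1, 76.9 and 38.2 in those of P12. P5 replicate 5, the highest P5 library, was above P12 replicate 4 (log2 fold change 1.26, standard error 0.31, edgeR adjusted p = 0.0046).

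The 4 genes of centromere and kinetochore rose by nearly the same factor, with log2 fold changes from 1.13 to 1.19, and none overlapped between ages. Cenpa, the histone H3 variant that marks centromeres, was at 163, 169, 214 and 150.3 in the P5 libraries and 452, 427, 333 and 299 in those of P12 (log2 fold change 1.13, standard error 0.16, edgeR adjusted p = 9.1e-05). Cenpf, a kinetochore protein, was at 145, 142, 128 and 151 in the P5 libraries and 405, 359, 296 and 231 in those of P12 (log2 fold change 1.19, standard error 0.16, edgeR adjusted p = 9.0e-05). The P12 libraries of both kept the order of Mki67 or nearly so, with replicate 4 lowest. Cenpe, a kinesin of the kinetochore, was at 112, 102, 121 and 111 in the P5 libraries and 281, 289, 249 and 158 in those of P12. Birc5, or survivin, of the chromosomal passenger complex, was at 117, 98.4, 104 and 93.1 in the P5 libraries and 267, 294, 193 and 158 in those of P12. Their log2 fold changes were 1.13 and 1.15.

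Of the 6 genes of spindle and cytokinesis, 5 were higher at P12 and 1 did not pass the test. Tpx2, which activates Aurora A on the spindle, was at 145, 153, 156 and 106 in the P5 libraries and 450.2, 432, 322 and 257 in those of P12 (log2 fold change 1.39, standard error 0.19, edgeR adjusted p = 8.4e-05). Kif11, the kinesin that separates spindle poles, was at 168, 195, 157 and 121 in the P5 libraries and 447, 384, 293 and 272 in those of P12 (log2 fold change 1.13, standard error 0.18, edgeR adjusted p = 0.0003). All P12 libraries of both were above all P5 libraries. Nusap1, which bundles spindle microtubules, was at 138, 129.7, 152 and 123 in the P5 libraries and 235, 317, 212 and 172 in those of P12, with a log2 fold change of 0.79. The kinesins Kif20a and Kif23 act at the central spindle in cytokinesis. Kif20a was at 87.4, 85, 107 and 104 in the P5 libraries and 183, 185, 142 and 137 in those of P12, and Kif23 at 139, 105, 145 and 123 in the P5 libraries and 238, 283, 227 and 146 in those of P12. Their rises were smaller, at log2 fold changes of 0.76 and 0.81, and the lowest P12 library of Kif23 was only just above its highest P5 library. Kif20a shared 29.2% of its exonic sequence with Cdc23 on the opposite strand.

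Prc1 (ENSMUSG00000038943, chromosome 7 of GRCm38, 80294450 to 80316259, forward strand), which bundles the antiparallel microtubules of the central spindle, stood apart from these kinesins. Its normalized counts were 316, 302, 293 and 344 in the P5 libraries and 340.2, 381, 311 and 237 in those of P12. The P12 libraries lay on both sides of the P5 range (log2 fold change 0.02, standard error 0.13, edgeR adjusted p = 0.92). The means were 314 ± 22.4 for P5 and 317 ± 60.6 for P12 (SD, n = 4 each), and the sign of the difference changed in 6 of 18 alternative fits. Under total count scaling Prc1 passed as higher, with a log2 fold change of 0.40 (edgeR adjusted p = 0.035). Its promoter held both CHR and CCAAT matches. Exonic overlap of 11.1% was found with Rccd1 on the opposite strand.

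Levels of different genes were compared as mean normalized counts per kilobase of the deposited gene length. At both ages Pcna was the highest of the 45 genes, with 301 normalized counts per kilobase in P5 and 618 in P12 libraries, followed by Mcm7 at 153 and 191. At P5 Cdk2 came next, at 137 per kilobase, and at P12 it ranked 11 at 115. Rrm2 was at 91.7 per kilobase at P5 and 187 at P12, and Mki67 at 74.9 and 154. Cdc20 ranked 12 at P5, at 54.5 per kilobase, and 7 at P12, at 148. The lowest levels were those of Ttk, at 5.9 and 14.2 per kilobase, and Cdc6, at 8.81 and 19. Of the 6 highest levels at P12, 5 were those of licensing and DNA synthesis genes (Pcna, Mcm7, Rrm2, Mcm6 and Mcm4), while Cdc6, a licensing gene too, ranked 44.

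The median ratio between the highest and lowest library over the 45 genes was 1.32 at P5 and 1.74 at P12, against a P12 median of 1.29 in the 10393 tested genes whose mean lay in the range of the 45. P12 replicate 4 was the lowest P12 library for 40 of the 45 genes, where 34.3% of all tested genes and 44.3% of those called higher at P12 were lowest there. P12 replicate 1 or 2 was the highest for all 45 genes (48.4% of all tested genes). The median log2 ratio of the 45 genes to their own P5 means was 1.26, 1.22, 0.90 and 0.52 in P12 replicates 1 to 4, and 0.06, 0.00, 0.05 and -0.11 in P5 replicates 1, 3, 4 and 5. Genes of DNA synthesis varied the least, with a median highest to lowest ratio of 1.43 at P12, and their P12 ratios to P5 were 0.95, 1.18, 0.81 and 0.63 on the log2 scale. Those of the spindle checkpoint and APC/C were 1.26, 1.35, 1.16 and 0.64. The G1/S regulators were at 0.50, 0.63, 0.43 and -0.10, so that this group did not exceed P5 in P12 replicate 4. At P5, replicate 5 was the lowest library for 25 of the 45 genes (30.0% of all tested genes).

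**Figure D3:**
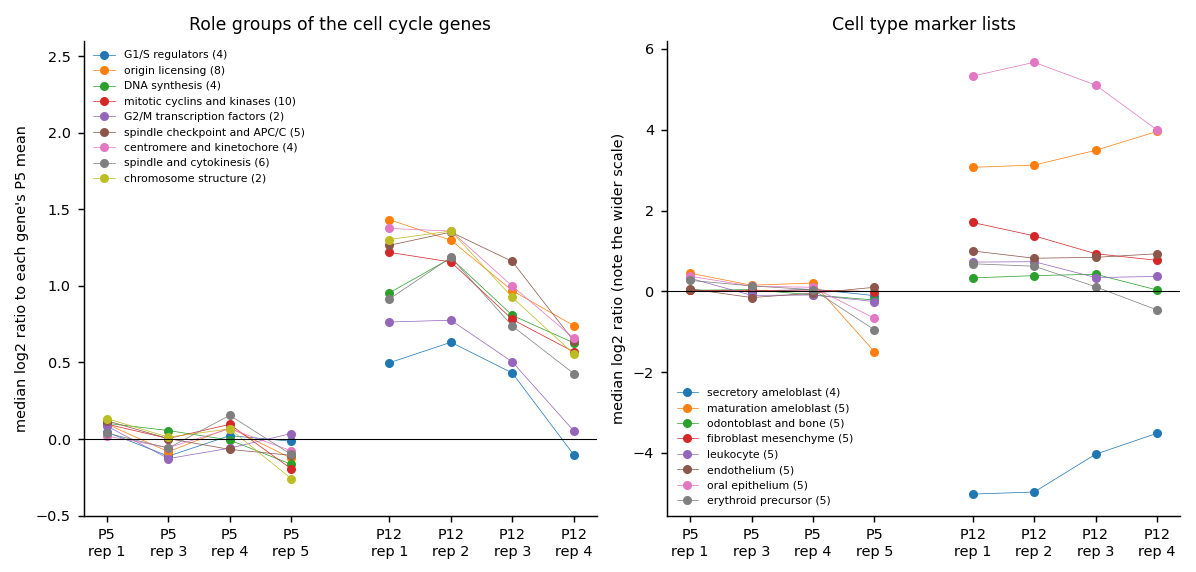
Median log2 ratio of each gene to its own P5 mean (vertical axes), by library, for the role groups of the cell cycle genes (left) and for lists of cell type markers (right, wider scale), with the number of genes in brackets and thin lines that only join the points of 1 list. Over all 45 genes the ratio was 1.26, 1.22, 0.90 and 0.52 in P12 replicates 1 to 4. The oral epithelium, fibroblast mesenchyme, odontoblast and bone, and erythroid lists were also lowest in P12 replicate 4 among the P12 libraries.

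Marker lists of cell types that the dissected tissue can hold were examined beside these values. The markers of the labelled tissue were present, since the ameloblast genes Amelx, Ambn, Enam and Mmp20 summed to 4966560 to 5580350 at P5 and 237041 to 621683 at P12, and all 4 were lower at P12. The maturation genes Klk4, Amtn, Odam, Slc24a4 and Wdr72 summed to 12880.2 to 44228 at P5 and 356963 to 482565 at P12, and all 5 were higher. No marker of the 39 was at 0 in any library. The oral epithelium markers Krt13, Krt4, Krt6a, Krt6b and Krt24 were higher at P12 in 5 of 5 cases, and their sum was 796 to 1571 at P5 and 12087 to 59122 at P12. In P12 replicate 4, Krt4 was at 276, within its P5 range of 183 to 348, and Krt13 was at 510, just above its P5 maximum of 453. The median log2 ratio of the oral epithelium markers to P5 was 5.33, 5.67, 5.11 and 3.99 in P12 replicates 1 to 4. Of the fibroblast markers, Col3a1, Postn and Twist1 were higher, Col1a2 was lower and Col1a1 did not pass the test, and the median log2 ratio was 1.70, 1.37, 0.93 and 0.77 in the same libraries. Their sum, mostly Col1a1 and Col1a2, was 871305 to 1054820 at P5 and 734542 to 994624 at P12. By median log2 ratio both lists were thus lowest in P12 replicate 4, as were the odontoblast and erythroid lists given below. P12 replicate 4 was also the lowest P12 library for 40 of the 45 cell cycle genes. The part of these lists in the cell cycle result was not tested.

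The median of the endothelial markers did not share this order. All 5 endothelial markers (Pecam1, Cdh5, Kdr, Tek and Emcn) were higher at P12, with a sum of 2278 to 2721 at P5 and 4397 to 4687 at P12. Their median log2 ratios were 0.9994, 0.82, 0.84 and 0.93, so that P12 replicate 4 was not the lowest by this median. Of the 5 genes, 2 (Pecam1 and Tek) were lowest in P12 replicate 4, and 4 were highest in replicate 1 or 2. Leukocyte markers were higher in 4 of 5 cases, all but Adgre1, with a sum of 1459 to 2098 at P5 and 2191 to 2917 at P12 and ratios of 0.72, 0.73, 0.34 and 0.37. The libraries of 4 of these 5 genes, all but Cd68, overlapped between ages. All 5 were highest in P12 replicate 1 or 2, and 3 of them were lowest in replicate 4. Of the odontoblast and bone markers, Ibsp and Sp7 were higher, Dmp1 was lower, and Dspp and Bglap did not pass the test. Their sum was 153392 to 202110 at P5 and 177821 to 209505 at P12. The ratios were 0.33, 0.39, 0.42 and 0.03, lowest in P12 replicate 4. Of the erythroid genes, Tfrc, the transferrin receptor, which is not restricted to these cells, was higher, and Gata1, Klf1, Alas2 and Hemgn did not pass the test, with a sum of 1683 to 2899 at P5 and 3452 to 5037 at P12. Tfrc carried the rise of this sum, with means of 1142 at P5 and 2977 at P12, while those of Alas2 were 1136 and 883. The sum was highest in P12 replicate 4, where Tfrc was at 4073. The median log2 ratios of the erythroid list were 0.68, 0.62, 0.11 and -0.46, by contrast lowest in P12 replicate 4. The maturation markers ran the other way, with ratios of 3.07, 3.12, 3.49 and 3.96 and their highest value in P12 replicate 4. Of these genes Odam alone was highest in P12 replicate 2. The ratios of Amelx, Ambn, Enam and Mmp20 were -5.02, -4.97, -4.03 and -3.51, also highest in P12 replicate 4 among the P12 libraries. The part of these cell types in the cell cycle result was not tested.

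A further 102 genes of the cell cycle were examined, of which 101 passed the filter on low counts. Of these, 63 were higher at P12, 12 were lower and 26 did not pass the test, with a median log2 fold change of 0.69, where 28.8% of all genes were higher and 28.4% lower. In the list of spindle, chromosome condensation and cytokinesis 21 of 22 genes rose, in kinetochore and spindle checkpoint 10 of 11, among G2/M regulators 9 of 12 and in replication fork and origin 15 of 27. Among G1 cyclins and kinases it was 1 of 5, among the pocket proteins and the DREAM complex 1 of 7, among CDK inhibitors 3 of 6, and among E2F and Myc factors 3 of 11. No gene of the lists of spindle and kinetochore was lower. A test of the differences between these lists was not made. Under total count scaling 83 of the 101 genes were called higher and 3 lower.

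In the list of spindle, chromosome condensation and cytokinesis the largest rises of the TMM fit were those of Ckap2, a spindle microtubule protein (log2 fold change 1.60), and Anln, or anillin, of the cleavage furrow (1.59), with Ckap2 at 64.3, 45.8, 62 and 45.5 in the P5 libraries and 194, 195, 139.9 and 127 in those of P12. Anln was at 97.7, 96.1, 115 and 98.4 in the P5 libraries and 399.6, 361, 276 and 182 in those of P12. The kinetochore genes Spc24 (1.43) and Knl1 (1.40) rose by a similar amount. Spc24 was at 48.9, 60.4, 58 and 44.5 in the P5 libraries and 167, 152, 142 and 106 in those of P12, and Knl1 at 52.7, 60.4, 60.6 and 43.4 in the P5 libraries and 169, 150.2, 139 and 114 in those of P12. As in most genes of mitosis, P12 replicate 4 was the lowest P12 library of all 4. Wee1, the kinase that restrains Cdk1, was at 221, 169.9, 215 and 183 in the P5 libraries and 587, 561, 559.7 and 389.6 in those of P12 (log2 fold change 1.42, standard error 0.14, edgeR adjusted p = 6.8e-06), and Cdkn3, a phosphatase of Cdk proteins, was at 11.6, 27.9, 18.5 and 21.2 in the P5 libraries and 49.1, 72.6, 50 and 34.1 in those of P12 (log2 fold change 1.37). All P12 libraries of these 6 genes were above their P5 libraries. Cdc25a, an activator of Cdk2, was lower, at 483, 555, 588 and 651 in the P5 libraries and 432, 392, 429 and 356 in those of P12 (log2 fold change -0.50, standard error 0.10, edgeR adjusted p = 0.0013). Its log2 fold change was -0.12 under total count scaling and no longer passed the test (edgeR adjusted p = 0.35).

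Among replication genes, Prim1, a primase subunit, was at 140.1, 135, 123 and 101 in the P5 libraries and 348, 323, 353 and 284 in those of P12 (log2 fold change 1.39, standard error 0.13, edgeR adjusted p = 3.4e-06), and Gmnn, or geminin, the inhibitor of Cdt1, was at 60.4, 70.4, 38.2 and 50.8 in the P5 libraries and 147, 181, 144 and 105 in those of P12 (log2 fold change 1.39, standard error 0.22, edgeR adjusted p = 0.00025). Neither overlapped between ages, while Cdt1 itself did not pass the test. Cdc7, the kinase that fires origins, was lower, at 138, 143, 162 and 205 in the P5 libraries and 113, 107, 74.1 and 68.3 in those of P12 (log2 fold change -0.83, standard error 0.20, edgeR adjusted p = 0.0041), and its log2 fold change was -0.45 under total count scaling (edgeR adjusted p = 0.084). Orc2, of the origin recognition complex, was at 343, 420.4, 411 and 359 in the P5 libraries and 328, 338, 335 and 248 in those of P12. It fell by 0.30 on the log2 scale (edgeR adjusted p = 0.045), a sign that changed under total count scaling (0.08), and its call held in 6 of 18 alternative fits. For Orc2, 29.8% of its exonic sequence overlaps exons of Nif3l1 on the opposite strand.

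Of the D cyclins and their kinases, Cdk6 alone was higher at P12 in the TMM fit. Ccnd2, cyclin D2, the most abundant D cyclin, was at 4556, 4495, 4752 and 4499 in the P5 libraries and 4268, 3739, 3843 and 3541 in those of P12 (log2 fold change -0.25, standard error 0.07, edgeR adjusted p = 0.0087), and its difference changed sign under total count scaling (0.13). Ccnd1 (log2 fold change 0.05, edgeR adjusted p = 0.83) and Ccnd3 (0.07, adjusted p = 0.61) did not pass the test. Under total count scaling Ccnd3 passed as higher (log2 fold change 0.45, edgeR adjusted p = 0.0074) and Ccnd1 did not pass. Ccnd1 was at 309, 285, 289 and 357 in the P5 libraries and 389, 393, 303 and 196 in those of P12, and Ccnd3 at 1095, 1119, 1276 and 1258 in the P5 libraries and 1423, 1376, 1168 and 1005 in those of P12. P12 replicate 4 was the lowest library of both. Cdk4 was lower, at 3101, 2991, 3034 and 2799 in the P5 libraries and 2384, 2386, 2166 and 1944 in those of P12 (log2 fold change -0.42, standard error 0.08, edgeR adjusted p = 0.00055), with a log2 fold change of -0.05 under total count scaling (edgeR adjusted p = 0.65). Cdk6 was higher, at 190.3, 123, 177 and 161 in the P5 libraries and 326, 339, 319 and 242 in those of P12 (log2 fold change 0.92, standard error 0.15, edgeR adjusted p = 0.00032). Exons of genes on the opposite strand cover 23.4% of the exonic bases of Ccnd1, 7.9% of Ccnd2 and 19.7% of Cdk4.

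CDK inhibitors moved in both directions. Cdkn1c, or p57, was at 1066, 1171, 1138 and 1037 in the P5 libraries and 524, 412, 418 and 389.6 in those of P12. All P12 libraries were below all P5 libraries (log2 fold change -1.34, standard error 0.09, edgeR adjusted p = 4.9e-07), and 30.7% of its exonic sequence overlaps exons of Gm44732 on the opposite strand. Cdkn2b, or p15, was at 650.5, 572, 395 and 110.1 in the P5 libraries and 1014, 907, 1609 and 2968 in those of P12. It rose (log2 fold change 1.91, standard error 0.48, edgeR adjusted p = 0.0052), with P5 replicate 5 as the lowest and P12 replicate 4 as the highest library, where most cell cycle genes had their lowest P12 value. Without these 2 libraries the log2 fold change of Cdkn2b was 1.12 (edgeR adjusted p = 0.00023). Cdkn2c, or p18, also rose, at 152, 165, 153 and 139 in the P5 libraries and 287, 270.0, 267 and 199 in those of P12 (log2 fold change 0.75, standard error 0.13, edgeR adjusted p = 0.00048). Cdkn2d, or p19, was at 197, 202, 212 and 247 in the P5 libraries and 319.7, 333, 272 and 219 in those of P12, with overlapping libraries (log2 fold change 0.42, standard error 0.14, edgeR adjusted p = 0.024), and its call held in 12 of 18 alternative fits. Cdkn1a, or p21, was the most abundant inhibitor, at 7947, 7704, 8309.9 and 8118 in the P5 libraries and 8579, 9412, 9019 and 8640.4 in those of P12. Its groups did not overlap, but the difference did not pass the test (log2 fold change 0.15, standard error 0.06, edgeR adjusted p = 0.061). It passed as higher in 6 of 18 alternative fits, among them total count scaling (log2 fold change 0.53, edgeR adjusted p = 4.1e-05). Cdkn1b, or p27, was at 1971, 1971, 1944 and 2210.0 in the P5 libraries and 1735, 1897, 1832 and 2485 in those of P12, with overlapping groups (log2 fold change -0.03, standard error 0.10, edgeR adjusted p = 0.84). The sign of its difference changed in 6 of 18 alternative fits. Under total count scaling Cdkn1b passed as higher (log2 fold change 0.34, edgeR adjusted p = 0.0059). Cdkn2a had counts of 1, 3, 0 and 0 at P5 and 5, 2, 6 and 3 at P12 and was too low to be tested, and a difference was not detectable at this depth.

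The pocket proteins restrain E2F factors. Rbl1, or p107, was lower at P12, at 918, 792, 833 and 962 in the P5 libraries and 652, 610.1, 706 and 593 in those of P12 (log2 fold change -0.45, standard error 0.08, edgeR adjusted p = 0.0007), with a log2 fold change of -0.08 under total count scaling (edgeR adjusted p = 0.46). Rbl2, or p130, the pocket protein of resting cells, was at 893, 875, 865 and 832 in the P5 libraries and 889, 1025, 1006 and 1238 in those of P12 (log2 fold change 0.26, standard error 0.09, edgeR adjusted p = 0.03). It was highest in P12 replicate 4. Its call held in 10 of 18 alternative fits, and 21.0% of its exonic sequence overlaps exons of Aktip and Gm45464 on the opposite strand. In the same list a subunit of the DREAM complex, Lin54, was lower (log2 fold change -0.36, edgeR adjusted p = 0.004; 0.01 under total count scaling), at 372, 408, 446 and 378 in the P5 libraries and 288, 313, 335 and 310.2 in those of P12. Rb1 was at 3939, 3518, 3778 and 3255 in the P5 libraries and 2569, 2779, 3049.6 and 3796 in those of P12 and did not pass the test (log2 fold change -0.25, standard error 0.11, edgeR adjusted p = 0.082). It also did not pass in 16 of 18 alternative fits, and its sign changed under total count scaling (0.12, edgeR adjusted p = 0.29). For Rb1, 14.9% of its exonic sequence overlaps exons of Lpar6 and Rcbtb2 on the opposite strand. Of the remaining factors, Myc was higher, at 202, 135, 144 and 201 in the P5 libraries and 566, 651, 441 and 302 in those of P12 (log2 fold change 1.53, standard error 0.23, edgeR adjusted p = 0.00016), and Mycn was lower, at 79.7, 88.3, 100.2 and 73 in the P5 libraries and 39.6, 37.1, 33.4 and 32.1 in those of P12 (log2 fold change -1.25, standard error 0.18, edgeR adjusted p = 0.00014). E2f7 and E2f5 had log2 fold changes of 1.14 (edgeR adjusted p = 0.0047) and -0.73 (adjusted p = 0.00026). E2f7 was at 28.3, 20.1, 38.2 and 28.6 in the P5 libraries and 82.1, 68.3, 63 and 38.2 in those of P12, and E2f5 at 355, 347, 393 and 352 in the P5 libraries and 219, 176, 260.4 and 218 in those of P12. The groups of Myc and Mycn did not overlap, in opposite directions, and both kept their direction and call in all 18 alternative fits.

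**Figure D4:**
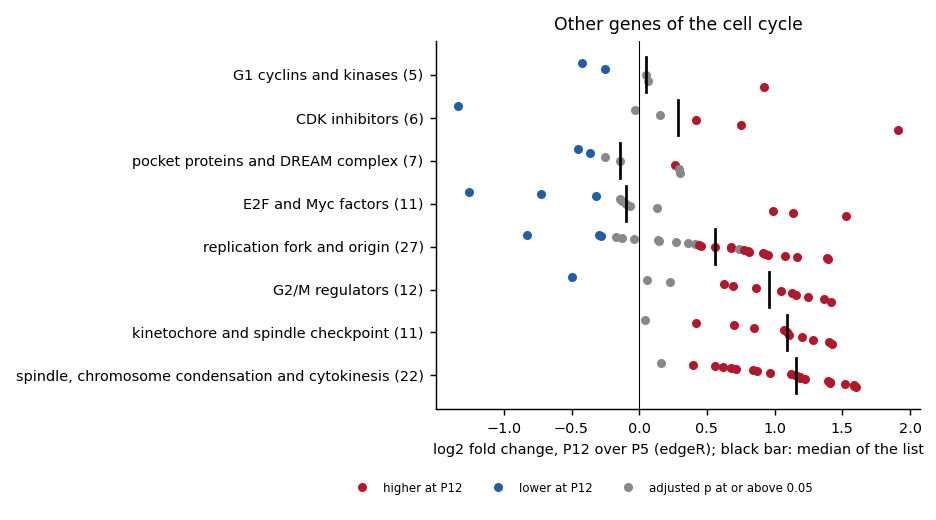
Log2 fold change at P12 over P5 (horizontal axis) of 101 further cell cycle genes, with the list and its number of tested genes on the vertical axis and a black bar at the median of each list. Red points passed an adjusted p of 0.05 as higher (63 genes) and blue points as lower (12 genes, of which 3 genes were called lower under total count scaling). The points of the lists overlap, and their medians run from -0.14 for the pocket proteins and DREAM complex to 1.16 for spindle, chromosome condensation and cytokinesis.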

How the data were processed

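Per the labels, RNA of first molar enamel organs was captured by polyA selection, and the authors deposited 1 table of raw read counts per gene for 4 libraries at P5 and 4 at P12. The submitters' processing notes name CASAVA and mm39, while gene coordinates in the table equal those of GENCODE M21 (GRCm38) for 53548 of 54532 genes and are given here as GRCm38. The aligner, the counting tool and its strand setting are not given in the sources used here. Total counts were between 16574548 and 22013456 per library.

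Counts of all genes were filtered with edgeR 4.0.16 (filterByExpr), scaled by TMM and tested with its quasi-likelihood test (glmQLFit and glmQLFTest, R 4.3.3) between the ages, with Benjamini-Hochberg adjustment over 16440 genes and a threshold of 0.05. Pools of separate pups are the replicates. The deposited table gave no other unit. DESeq2 1.42.0, limma-voom (limma 3.58.1), other scalings, filters and thresholds, libraries left out and a replicate block were tried as alternatives, and in simulated counts the edgeR test recovered 74.7% of 87 genes changed by 1 log2 unit and 97.3% of 110 changed by 2, with 9 false calls among 181. Few of the 16440 genes were changed in the simulation, in both directions, while 57.2% were called in the data. The rates of the simulation therefore need not hold for the data. The 45 genes, the 102 further genes and the marker lists were chosen with earlier results of these data known. Values per library were given for every one of the 45 genes that was higher, that did not pass the test or that had the largest or smallest change of its role group, and for the 2 largest rises and falls of each further list and all its G1 cyclins, CDK inhibitors and pocket proteins. Promoters (RefSeq, GRCm38.p6) were chosen for printing after their motifs were seen, and 1 promoter per gene entered the shares. Overlaps between exons were taken from GENCODE M21. Results of 1 further marker list are not reported here.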

Additional observations from a re-analysis of the deposited data

Results flagged for a closer look

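Each of the 45 genes was examined within each age for a library whose gap to its nearest neighbour, as a share of the whole range, exceeded the 95% critical value of Dixon's test for 4 libraries. Of 90 combinations of gene and age 2 passed, where chance gives 4.5. Tyms was low in P5 replicate 5, at 115 normalized counts, while the remaining P5 libraries held 138 to 141, and the gap was 0.885 of the range. Bub1 was high in P5 replicate 4, at 62.0 normalized counts, while the remaining P5 libraries held 42.3 to 42.5, and the gap was 0.993 of the range. Both genes were higher at P12 also with any single library left out.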

How the results depend on the processing

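Of the 39 rises among the 45 genes, 33 kept their direction and call in each of the 18 alternatives. Over the 45 genes and these alternatives, 759 of the values kept their direction and side of the threshold, 36 lost the call, 8 gained it and 7 changed sign. DESeq2 called 39 of the 45 genes higher and 1 lower, and limma-voom 37 and 1. Under total count scaling 44 of the 45 genes were higher and 0 lower, and Cdk2 had a log2 fold change of 0.11 (edgeR adjusted p = 0.11), since that scaling moved the median of all genes. With a required change of at least 1 log2 unit in size, 3541 genes differed between the ages, 24 of the 45 genes were higher and 0 lower, and 35 of the further cell cycle genes differed. With single libraries left out, between 8708 and 10030 genes differed, 35 to 41 of the 45 genes were higher and 1 was lower, 69 to 77 of the further genes differed, and 33 to 41 of the 45 genes did not overlap between ages. The log2 fold change of Prc1, 0.018 over all libraries, ranged from -0.079 to 0.129 in these fits (-0.0072 and -0.017 without P5 replicates 3 and 4, -0.023 and -0.079 without P12 replicates 1 and 2), and did not pass the test in any of them. The lowest counts, those of Cdc25c and Ttk, limit their precision.

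Replicate numbers 1, 3 and 4 occur at both ages. The deviations of same-numbered libraries from their group means correlated at 0.04, 0.01 and -0.04 over 16440 genes, and the numbers were therefore not taken as pairs. With the replicate block over these 6 libraries 7710 genes differed, 34 of the 45 genes were higher and 1 was lower, and 63 of the further genes differed, against 8117, 33, 1 and 66 in the same libraries without the block. Prc1 had a log2 fold change of -0.046 with the replicate block and -0.032 without it.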
